A study of Homo sapiens with 10 samples.

Results

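Of 20591 genes measured, 238 split 4 human leukaemia and lymphoma cell lines into the pairs K562 with THP1 and HL60 with SUDHL4. A gene was taken when both lines of a pair reached 5 or more and the lower log2(value + 1) of that pair lay at least 2 above the higher of the other pair; this distance is called the margin. The rule gave 197 genes high in K562 and THP1 (0.957% of all genes) and 41 high in HL60 and SUDHL4 (0.199%). The members were chosen by their levels in the 4 pure lines, so those levels are given as a description without a test, and nothing is read from either percentage.

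K562, of erythroid character, came from the blast crisis of a chronic myeloid leukaemia, and THP1 is monocytic and came from an acute leukaemia. HL60 is a promyelocytic acute leukaemia line and SUDHL4 a diffuse large B cell lymphoma line of germinal-centre type. Neither pair follows lineage, since each joins lines of different blood lineages. All cells were labelled wild type, untreated and taken at day 0, and all grew in serum-supplemented RPMI medium. Each line was sequenced once alone, and 6 mixtures of the 4 lines, of ratios that the labels do not give, were sequenced once each. The labels name 2 library kits, 1 for stranded total RNA at low input and 1 for stranded mRNA, without saying which library was made with which.

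Blood cells attach to matrix and neighbouring cells through integrins, cadherin-bound catenins and other adhesion proteins, which connect to actin filaments shaped by small GTPases. Bundling proteins such as fascin and membrane-linking proteins such as annexins build protrusions and carry membrane traffic. Lymphocytes and many other leukocytes carry a further set of surface and signalling proteins, some of them tied to antibody production and to the B cell receptor.

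Recovered reads ran from 24985570 to 36607612 over the 10 libraries, and 1 read was worth between 0.0409 and 0.0594 normalised CPM, which stands for counts per 1000000 reads after the authors' scaling between libraries. A gene with 0 reads was taken to have at most 3 reads, between 0.0955 and 0.139 normalised CPM. Each line was set against its defining markers. K562 had the erythroid transcription factor GATA1 at 236. THP1 had the monocyte genes CSF1R at 256 and LYZ at 1078, but FCN1 of its list had 0 reads. HL60 had the granule peroxidase MPO at 15645.5 and SUDHL4 the B cell antigen MS4A1 at 2669. With 1 library per line there is no replicate check of any difference. Intervals of levels are exact 95% Poisson intervals, and those of ratios come from exact 95% binomial intervals of the reads. Both cover counting error only.

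Among the genes high in K562 and THP1, the widest margins belonged to a creatine transporter, an RNA-binding protein, an actin bundler, a vesicle-traffic switch and an annexin. SLC6A8 (ENSG00000130821), which imports creatine, was at 212 normalised CPM in K562, 485 in THP1, 1.49 in HL60 and 0 reads in SUDHL4. It was thus 142-fold higher in K562 than in HL60 (95% counting interval 107 to 198), with both high lines far above both low ones. IGF2BP2 (ENSG00000073792), which binds and stabilises messenger RNAs, stood at 108 in K562 and 178 in THP1 against 0.553 in HL60 and 0.312 in SUDHL4. FSCN1 (ENSG00000075618) encodes fascin, which bundles actin filaments in cell protrusions, and its levels were 265 in K562, 285 in THP1, 3.13 in HL60 and 0.826 in SUDHL4. RAB13 (ENSG00000143545), a small GTPase of membrane traffic to cell junctions, was at 70.8 in K562 and 170 in THP1, with 0 reads in HL60 and 3 reads in SUDHL4. ANXA2 (ENSG00000182718), an annexin that links membranes to actin, was at 363 in K562 and 137 in THP1 against 1.66 in HL60 and 0.275 in SUDHL4. ANXA2 has processed pseudogenes with near-identical sequence, so reads may be split among them.

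The next genes by margin are known from several tissues. TNNT1, a troponin of slow skeletal muscle, was at 143 in K562 and 61.6 in THP1 against 0.352 in HL60 and 0.202 in SUDHL4. MEIOB, a meiotic recombination protein, was at 105 in K562 and 40.3 in THP1 and had 0 reads in both low lines; its THP1 level was at least 313-fold above the limit of 3 reads. PROS1, the anticoagulant protein S, also had 0 reads in both low lines and was at 72.4 in K562 and 38.2 in THP1, at least 297-fold higher.

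EHD2, a membrane-shaping protein of caveolae, was at 109.6 in K562 and 35.0 in THP1 with 0 reads in both low lines, at least 272-fold higher. PKIB, an inhibitor of protein kinase A, was at 49.9 in K562 and 61.3 in THP1 against 0.151 in HL60 and 0.386 in SUDHL4. NCAM2, a neural adhesion molecule, was at 49.2 in K562 and 92.7 in THP1 against 0.419 in HL60 and 0.0918 in SUDHL4. GRIN2D, a glutamate receptor subunit, followed this pattern at 41.0 and 73.4 against 0.486 and 0 reads. ADAMTSL4, a matrix protein of the fibrillin network, was at 107 and 33.9 against 0.151 and 0 reads. HSPB1, a small heat-shock chaperone, was the least silent of the leading genes in the low lines, with 4.58 in HL60 and 5.60 in SUDHL4 beside 178 in K562 and 373 in THP1. LOC339260 was at 32.1 in K562 and 34.1 in THP1 with 0 reads in both low lines. The plot of leading members shows that no low-line value reached a high-line value, which the rule requires.

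**Figure D1:**
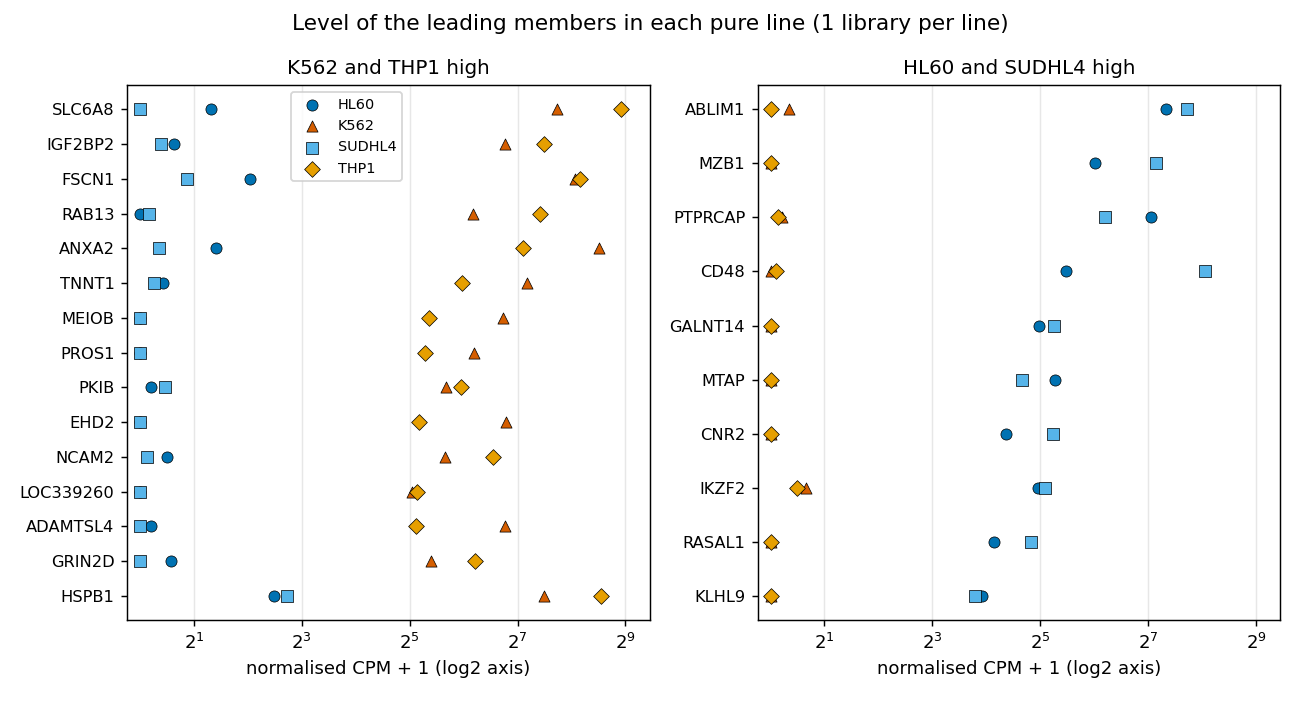
Level of the 15 K562 and THP1 members and the 10 HL60 and SUDHL4 members with the widest margins, as normalised CPM + 1 on a log2 axis, 1 point per pure line and 1 library per line. Where both low lines had 0 reads, as for MEIOB and MZB1, their points coincide and 1 hides the other; SLC6A8 runs from 0 reads in SUDHL4 to 485 in THP1.

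Among the 41 genes high in HL60 and SUDHL4, those with the widest margins were an actin-binding LIM protein and genes of lymphocytes. ABLIM1 (ENSG00000099204), which couples LIM domains to actin, was at 159 in HL60 and 209.6 in SUDHL4 against 0.268 in K562 and 0 reads in THP1, a ratio of 593 between HL60 and K562 (329 to 1369). MZB1 (ENSG00000170476), an endoplasmic reticulum protein of antibody-secreting and marginal zone B cells, was at 63.6 in HL60 and 139.8 in SUDHL4, with 0 reads in both K562 and THP1, at least 595-fold higher. PTPRCAP (ENSG00000213402), a partner of the leukocyte phosphatase CD45, was at 132 in HL60 and 72.2 in SUDHL4 against 0.155 in K562 and 0.107 in THP1. CD48 (ENSG00000117091), a leukocyte adhesion ligand, was at 43.3 in HL60 and 263 in SUDHL4, with 0 reads in K562 and 2 in THP1. These genes of B cells and leukocytes were thus present in the promyelocytic line and near 0 in the monocytic one.

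Further down, GALNT14, an enzyme that starts mucin-type sugar chains, was at 30.5 in HL60 and 36.9 in SUDHL4 with 0 reads in both other lines. CNR2, the cannabinoid receptor of immune cells, and RASAL1, a Ras-inactivating protein, likewise had 0 reads in K562 and THP1 and were at 19.7 and 16.5 in HL60 and at 36.7 and 27.3 in SUDHL4. IKZF2 encodes Helios, an Ikaros-family transcription factor, and was at 30.0 in HL60 and 33.1 in SUDHL4 against 0.579 in K562 and 0.413 in THP1. CD79A, a signalling chain of the B cell receptor, met the rule with very unequal levels, 12.1 in HL60 (95% counting interval 10.9 to 13.4) and 1003 in SUDHL4, against 1.36 in THP1 and 0.212 in K562. Its presence in HL60 was not accompanied by CD79B, the partner chain, which was at 0.285 there and 504 in SUDHL4.

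For the members with the widest margins that the RefSeq promoter table holds, 3 of the first direction and 2 of the other, the promoter is shown from 250 bases before to 50 after the transcription start. The sequences are those of RefSeq on build GRCh38.p14, written 5′ to 3′ along the gene's own strand, with every CG dinucleotide in capitals, because CpG content is what separates CpG-island promoters from others. FSCN1 had no matching entry.
SLC6A8 promoter, chrX:153687676-153687975, plus strand: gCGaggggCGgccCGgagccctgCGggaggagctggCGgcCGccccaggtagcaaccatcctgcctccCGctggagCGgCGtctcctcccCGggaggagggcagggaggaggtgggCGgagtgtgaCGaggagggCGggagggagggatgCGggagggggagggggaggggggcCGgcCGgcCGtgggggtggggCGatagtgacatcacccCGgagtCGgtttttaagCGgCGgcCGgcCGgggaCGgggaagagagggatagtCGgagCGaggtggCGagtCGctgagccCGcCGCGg
IGF2BP2 promoter, chr3:185824993-185825292, minus strand: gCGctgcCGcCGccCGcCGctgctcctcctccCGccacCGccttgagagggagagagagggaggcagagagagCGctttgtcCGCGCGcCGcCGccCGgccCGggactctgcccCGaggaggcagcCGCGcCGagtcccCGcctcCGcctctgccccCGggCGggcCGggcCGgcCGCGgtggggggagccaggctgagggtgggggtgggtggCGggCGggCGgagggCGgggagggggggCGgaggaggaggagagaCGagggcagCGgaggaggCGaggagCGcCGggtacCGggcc
RAB13 promoter, chr1:153986290-153986589, minus strand: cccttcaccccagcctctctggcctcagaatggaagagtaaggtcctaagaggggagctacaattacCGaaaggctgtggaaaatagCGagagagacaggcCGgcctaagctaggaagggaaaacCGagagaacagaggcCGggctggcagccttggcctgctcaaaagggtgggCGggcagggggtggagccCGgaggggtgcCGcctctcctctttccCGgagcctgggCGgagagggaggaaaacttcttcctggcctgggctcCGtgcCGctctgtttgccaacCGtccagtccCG
ABLIM1 promoter, chr10:114684954-114685253, minus strand: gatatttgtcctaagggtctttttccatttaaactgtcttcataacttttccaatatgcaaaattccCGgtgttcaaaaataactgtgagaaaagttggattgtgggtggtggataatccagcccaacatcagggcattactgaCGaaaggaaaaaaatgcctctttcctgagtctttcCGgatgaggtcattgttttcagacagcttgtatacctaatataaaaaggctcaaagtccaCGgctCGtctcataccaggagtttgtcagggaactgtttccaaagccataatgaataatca
MZB1 promoter, chr5:139389864-139390163, minus strand: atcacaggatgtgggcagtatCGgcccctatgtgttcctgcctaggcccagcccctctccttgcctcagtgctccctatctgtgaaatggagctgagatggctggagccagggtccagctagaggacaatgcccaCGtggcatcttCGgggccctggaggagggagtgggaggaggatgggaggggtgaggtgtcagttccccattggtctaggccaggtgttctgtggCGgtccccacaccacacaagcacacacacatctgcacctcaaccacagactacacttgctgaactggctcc
The SLC6A8 promoter holds 32 CG dinucleotides and that of IGF2BP2 holds 38, against 14 for RAB13, 5 for ABLIM1 and 4 for MZB1. CG reads the same on both strands. Over 27305 first-listed promoters of the same length, 95.8% hold at least 1, the median is 14 and the quartiles are 3 and 28. As many CG dinucleotides as SLC6A8 or more were found in 18.6% of promoters, as many as IGF2BP2 or more in 9.69%, and as many as MZB1 or more in 74.7%. RAB13 lies at the median, with as many or more in 50.1% of promoters, and as many as ABLIM1 or more were found in 69.5%; this is a description of 5 sequences. Promoter entries matched 149 of the 197 members (75.6%) and 32 of the 41 (78.0%), below the 80% set for a comparison of whole sets, so none was made.

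Many members had 0 reads in a low line. Of the 197 K562 and THP1 members, 95 (48.2%) had 0 reads in SUDHL4 and 47 (23.9%) in HL60, and 35 had 0 reads in both. SUDHL4 had 27166921 recovered reads and HL60 33050514, and among all 1675 genes at 5 or more in K562 or THP1 and under 5 in both low lines, 47.6% had 0 reads in SUDHL4 and 32.9% in HL60. Median levels over the 197 were 27.4 in K562, 18.7 in THP1, 0.285 in HL60 and 0.0551, the value of 1 read, in SUDHL4. Among the 139 members with a read and under 5 in both low lines, HL60 was the higher in 66.2%, beside 60.9% of 1257 genes overall that were under 5 in these lines, had a read there and reached 5 elsewhere, so the share among members lies near that of all such genes. HL60 still held 20 members at 5 or more and SUDHL4 6. TIMP1, an inhibitor of matrix proteases, was at 435 in K562, 217 in THP1 and 19.3 in HL60 with 0 reads in SUDHL4. CAPN2, a calcium-dependent protease, was similar at 181, 281, 13.1 and 0 reads, and AHNAK, a giant membrane scaffold, at 119, 463, 27.7 and 0 reads. CTNNA1, which ties cadherins to actin, went the other way, at 224 and 122 against 0.184 in HL60 and 16.7 in SUDHL4. These 4 genes were picked after their values were seen.

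In the HL60 and SUDHL4 direction the median levels over 41 members were 30.0 in HL60, 62.4 in SUDHL4, 1.36 in THP1 and 0.296 in K562. K562 had 0 reads for 12 of them, THP1 for 9 and both lines for 7. At 5 or more there were 11 in THP1 and 3 in K562. RASSF2, a Ras-binding growth suppressor, was at 254 in HL60 and 213 in SUDHL4, 42.5 in THP1 and 0 reads in K562. CYFIP2, a subunit of the complex that starts actin branching, was at 191 in HL60, 1549 in SUDHL4, 13.1 in THP1 and 0.212 in K562. ORAI2, a calcium channel subunit, was lower but not silent in both other lines, at 258 and 215 against 36.3 in THP1 and 24.6 in K562. The partly silent members were again picked after their values were seen.

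**Figure D2:**
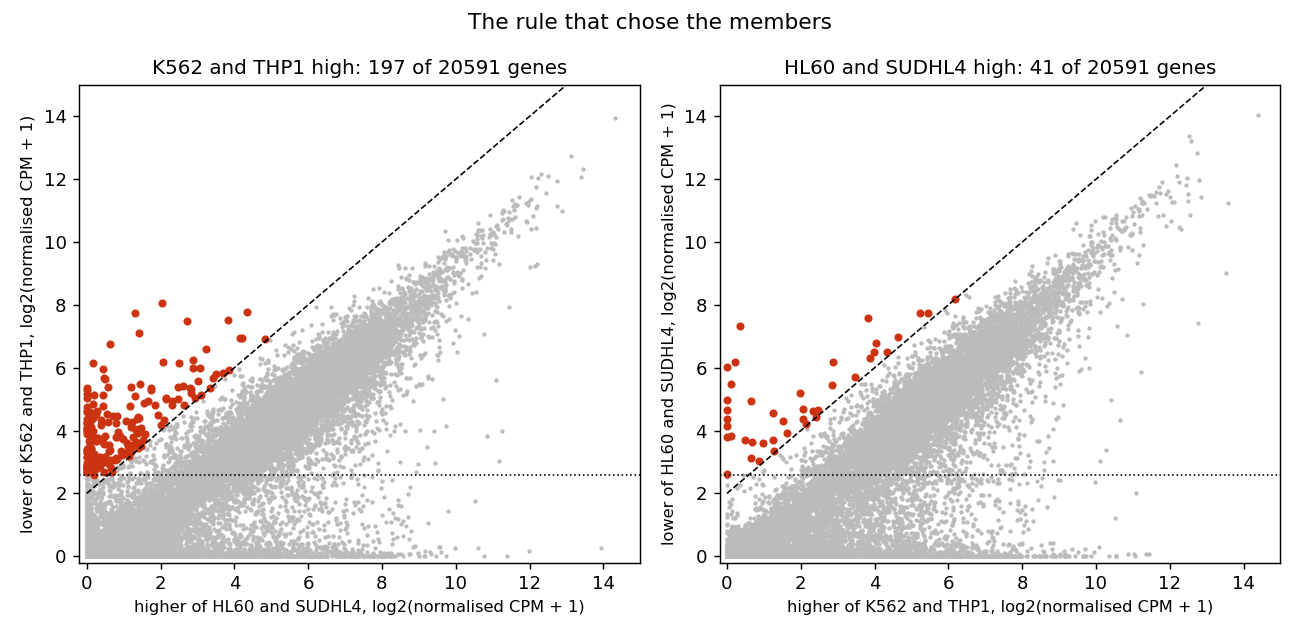
Each point is 1 of 20591 genes, with the higher log2(normalised CPM + 1) of the low pair across and the lower of the high pair up; members are red, the dashed line is a margin of 2 and the dotted line a level of 5. The 197 members on the left and the 41 on the right lie above both lines, many of them at the left edge where the low pair had few or 0 reads.

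The margin had a median of 2.96 and a maximum of 6.42 in the first direction, and 2.63 and 6.98 in the other. The members just inside the rule were WSB2 (margin 2.00), ZNF467 (2.01) and ADAM9 (2.01) for K562 and THP1, with PALM (1.997), ZBTB38 (1.98) and ZNF518B (1.97) just outside. On the other side SBF1 (2.03), TMEM156 (2.04) and PARP11 (2.07) were inside and ICAM3 (1.96), MFNG (1.94) and ENSG00000260997 (1.896) outside. WSB2 was at 98.2 in K562 and 39.5 in THP1 against 9.10 in HL60, and ICAM3, a leukocyte adhesion molecule, at 164 in HL60 and 158 in SUDHL4 against 39.9 in THP1.

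The high lines of a pair often differed from each other. K562 was the higher of its pair in 119 of 197 members and THP1 in 78. The levels lay within 2-fold of each other in 98 of 197 (49.7%), against 65.5% of 8235 genes at 5 or more in both lines. K562 exceeded THP1 more than 4-fold in 21 members, beside 4.66% of those 8235 genes, and THP1 exceeded K562 more than 4-fold in 7, beside 3.19%. The widest gap was that of LEPR, the leptin receptor, at 212 in K562 and 7.41 in THP1; LEPR overlaps LEPROT, so its reads are uncertain. FN1, the matrix protein fibronectin, was at 163 and 9.64. In the opposite sense AXL, a receptor tyrosine kinase, was at 14.5 in K562 and 78.4 in THP1, and CST3, the protease inhibitor cystatin C, at 33.6 and 181. FSCN1, TPM1 (31.8 and 34.1) and FCGR2A (50.1 and 52.0) were nearly equal.

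HL60 and SUDHL4 were within 2-fold in 29 of 41 members (70.7%), against 73.6% of 7922 genes at 5 or more in both. SUDHL4 was the higher in 31. It exceeded HL60 more than 4-fold in 8, beside 3.22% of those genes, while HL60 exceeded SUDHL4 that far in 0, beside 2.95%. The 8 included CD79A, CD48, CYFIP2, BIRC3 and ITPR2, so several of the genes of this direction were mainly SUDHL4 genes with a smaller amount in HL60.

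Hand-assigned roles, given after the values were seen, covered 128 of the 197 K562 and THP1 members. Roles were given to members only, so no share over all genes stands beside a role count, here or below. Nothing is read from these counts. By these roles 8 members belonged to adhesion and junctions and 10 to the extracellular matrix and its processing. Of the 8 members in adhesion and junctions, CTNND1, which stabilises cadherins, was at 134 in K562 and 62.0 in THP1 against 6.39 in HL60 and 4.31 in SUDHL4, and NECTIN2, a nectin of cell contacts, at 75.6 and 79.95 against 6.32 and 1.67. ITGB5, an integrin that binds vitronectin, was at 37.8 and 19.8 with 0 reads in both low lines. Of the 10 matrix members, SERPINH1, the collagen chaperone, was at 105 and 71.98 against 1.29 and 3.21, and ECM1, a secreted matrix protein, at 33.9 and 148 against 0.352 and 0.275. HSPG2, the basement membrane proteoglycan perlecan, was at 147 and 95.5 against 8.40 and 0.496. From the fixed list of integrins and cell adhesion, with 36 measured genes, ITGB5 was the 1 member. Of its 26 genes at 5 or more in a pure line, 4 were higher by any amount in both K562 and THP1 than in both other lines and 1 showed the reverse, beside 14.9% and 16.5% of 11717 genes.

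Because such genes are also typical of other tissues, fibroblast and epithelial markers were read in the same libraries. Of 8 measured markers, LUM had 0 reads in K562 and THP1, DCN was at 0.0706 in K562 with 0 reads in THP1, and COL1A1 was at 0.296 and 0.474. Keratins were high in K562 alone of the pair, with KRT8 at 687 against 2.73 in THP1 and KRT18 at 621 against 0.474, as was EPCAM at 117 against 0.107. COL1A2 was at 21.9 in K562 with 0 reads in THP1. In HL60 and SUDHL4 the 8 markers were at most 0.721, except DCN at 69.7 in SUDHL4. In THP1 the 8 markers were at most 2.73. Of the 5 markers at 5 or more in a pure line, 3 had both K562 and THP1 above both other lines. The reverse held for 0, and the shares over 11717 such genes were 14.9% and 16.5%. Over the 8 measured markers the median difference between the means of the pairs was 1.29 on the log2 scale. The part of the keratin-expressing state of K562 in the result was not tested.

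Members with an actin role, as assigned by hand, were found in both directions. In K562 and THP1 it had 12 members by role, with a median of 43.9 in K562, 17.2 in THP1, 1.53 in HL60 and 0.110 in SUDHL4. TPM1, a tropomyosin that coats filaments, was at 31.8 and 34.1 against 3.27 and 3.47. PDLIM4, a LIM protein of stress fibres, was at 18.8 and 7.99 with 0 reads in both low lines, and RHOC, a small GTPase of contractility, at 96.0 and 41.4 against 4.91 and 5.05. CDC42EP1, an effector of CDC42, was at 52.6 and 18.3 with 0 reads elsewhere. In HL60 and SUDHL4, 7 members belonged to the actin cytoskeleton and its signalling, with medians of 88.9 and 131 against 13.1 in THP1 and 1.31 in K562. RHOF, a small GTPase of filopodia, was at 78.6 and 81.2 against 13.7 and 1.91. ELMO1, part of a Rac activator, was at 88.9 and 131 against 19.1 and 1.00.

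Of the 36 gene lists, holding 887 genes of which 837 were measured, 24 K562 and THP1 members and 8 HL60 and SUDHL4 members belonged to a list. The list of 41 measured actin genes held FSCN1 and TPM1 from the first direction and ABLIM1 from the other. Among its 38 genes at 5 or more in a pure line, both K562 and THP1 exceeded both other lines in 9 by any amount (14.9% of 11717 genes did) and the reverse held for 1 (16.5%). List medians are of the log2(value + 1) difference, the mean of K562 and THP1 minus the mean of HL60 and SUDHL4, over measured genes. For the 41 actin genes this median was 0.47, beside 0.05 over all 20591 genes. Over the 11717 genes at 5 or more it was −0.04 (0.05 when libraries were scaled to total reads and 0.10 when scaled to housekeeping genes). FLNC, an actin crosslinker of muscle, was among the 9 but at 374 in K562 and 0.443 in THP1, so sharing the order of the lines did not make levels alike.

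Receptors and their ligands, of several families, were 12 of the K562 and THP1 members by role. The list of receptor tyrosine kinases and ligands had 37 measured genes, of which AXL, PDGFA and EPHB4 were members and 0 were members of the other direction. AXL, which binds GAS6, had 0 reads in HL60 and SUDHL4, and its K562 level was at least 113-fold above the limit. PDGFA, a platelet-derived growth factor, was at 11.5 in K562 and 8.02 in THP1 against 0.218 and 0 reads. EPHB4, a receptor of ephrins, was at 85.9 and 7.50 against 0.218 and 0.753. Of the 21 list genes at 5 or more in a pure line, 9 were higher in both K562 and THP1 than in both others. The reverse held for 0. Among all 11717 genes at that level these shares were 14.9% and 16.5%. Over its 37 measured genes the list's median difference was 0.94.

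The TGF-beta and BMP list, with 30 measured genes, contributed ACVR1, a BMP type I receptor, and ID1, a BMP target that blocks differentiation factors. ACVR1 was at 17.9 in K562 and 5.94 in THP1, with 0 reads in HL60 and 0.569 in SUDHL4. ID1 was at 25.5 and 7.75 against 0.721 and 0.0918. The list median was 0.90. Of its 22 genes at 5 or more, 8 followed the K562 and THP1 order (14.9% of 11717 genes did) and 0 the reverse (16.5%). The type I receptor TGFBR1 was among the 8 with a small difference, at 56.8 and 48.0 against 25.7 and 20.9. The type II receptor TGFBR2 was not, at 0.127 in K562, 40.6 in THP1, 36.3 in HL60 and 6.11 in SUDHL4. The ligand TGFB1 was high in all 4 lines, from 162 in THP1 to 344 in K562.

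Signalling targets followed in smaller numbers. FOSL1, an AP-1 transcription factor induced by ERK, was at 18.2 in K562 and 15.6 in THP1 against 1.49 in HL60 and 0 reads in SUDHL4. SPRY4, a feedback inhibitor of the same pathway, was at 29.5 and 7.90 against 0.419 and 0 reads. They were the 2 members among 28 measured genes of the ERK list, where 3 of 21 genes at 5 or more followed the K562 and THP1 order and 3 the reverse, so the list as a whole was not split one way. The JAK-STAT list contributed LEPR alone of 25 measured, with a list median of 0.84. Of its 21 genes at 5 or more, 10 followed the order and 2 the reverse. Among all 11717 genes at that level, 14.9% followed the order and 16.5% the reverse, which is the background of the ERK list too. IFITM3, an interferon-induced membrane protein with close homologues, was at 39.5 and 67.9 against 2.36 and 0.973, and was the only member among 25 interferon-stimulated genes.

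Transcription factors of the K562 and THP1 direction, 13 by role, had medians of 18.1 in K562, 13.9 in THP1, 0.0503 in HL60 and 0 in SUDHL4. Over all 197 members the medians were 27.4, 18.7, 0.285 and 0.0551 in the same order. The rule itself requires lower levels in HL60 and SUDHL4. TEAD1 and TEAD4, the DNA-binding partners of YAP, were both members: TEAD1 was at 27.4 and 16.3 with 0 reads in both low lines, and TEAD4 at 35.6 and 10.4 with 0 reads in HL60 and 1.16 in SUDHL4. EPAS1, a hypoxia-inducible factor, was at 14.5 and 15.6 against 0.0503 and 0 reads. PGR, the progesterone receptor, was at 9.19 and 10.6, ZIC2, a factor of neural development, at 5.97 and 13.9, and TBX18, a T-box factor of heart and urinary tract, at 18.1 and 32.4, each with 0 reads in both low lines. Among 44 measured progenitor and haematopoietic transcription factors, the first direction had 0 members and the other had IKZF2. Of its 37 genes at 5 or more in a pure line, 5 were higher in both K562 and THP1 than in both other lines. The reverse held for 5. Among all 11717 genes at that level these shares were 14.9% and 16.5%.

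Metabolic and lysosomal members were led by SLC6A8 together with CKB, the creatine kinase that uses creatine, at 145 in K562 and 38.4 in THP1 against 2.36 and 0.532. SLC6A8 was the only member among 27 measured amino acid, creatine, lactate and glucose transporters, whose median difference was −0.34. All 27 were at 5 or more in a pure line. Of them 4 followed the K562 and THP1 order (14.9% of 11717 genes did) and 6 the reverse (16.5%). ALDH1L2, a mitochondrial folate enzyme, was at 6.71 and 10.2 against 0.520 and 0 reads. It was the only member of 24 genes of amino acid synthesis and the ATF4 response. Those 24 were also all at 5 or more, and 5 followed the same order and 5 the reverse. MBOAT2, a phospholipid acyltransferase, was at 107 and 31.5 with 0 reads in HL60 and 3.40 in SUDHL4. P4HA2, which hydroxylates collagen prolines, was at 38.9 and 15.7 against 1.69 and 0.312. From the list of 29 measured lysosomal genes, the protease CTSL was at 119 and 59.6 against 13.6 and 0 reads. Of 27 lysosomal genes at 5 or more, 6 followed the K562 and THP1 order (14.9% of 11717 genes did) and 2 the reverse (16.5%).

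Among 35 measured myeloid surface and signalling genes, FCGR2A, an Fc receptor of phagocytes, AXL and CST3 were members. FCGR2A was at 50.1 in K562 and 52.0 in THP1 against 9.64 in HL60 and 1.05 in SUDHL4, and has close homologues. The monocyte receptor CSF1R of that list was at 256 in THP1 and had 0 reads in K562. The list's median difference was 1.61. Of its 29 genes at 5 or more, 5 had both K562 and THP1 above both other lines (14.9% of 11717 genes did). The reverse held for 0 (16.5%). The median log2(value + 1) level of the list was 5.52 in THP1, 0.10 in K562, 1.32 in HL60 and 0.13 in SUDHL4. From the list of 25 annexins, S100 proteins and galectins, ANXA2 was the 1 member. The median difference over the 25 genes was 1.42. Of the 20 at 5 or more, 5 had both K562 and THP1 above both other lines (14.9% of 11717 genes did). The reverse held for 0 (16.5%). S100A10, the partner of ANXA2, was at 0.861 in K562, 83.9 in THP1, 7.76 in HL60 and 0 reads in SUDHL4. The 2 chains thus did not share a pattern.

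Lists of lymphocyte and leukocyte genes held members of the HL60 and SUDHL4 direction. Of 39 measured B lymphoid genes, 3 were HL60 and SUDHL4 members (CD48, CD79A and MZB1) and 0 were in the first direction. The list's median difference was −2.57. The median log2(value + 1) level of these 39 genes was high in SUDHL4 alone, at 7.48. It was 0.12 in HL60, 0.06 in K562 and 0.90 in THP1. Among the 37 at 5 or more, 7 were higher in both HL60 and SUDHL4 than in both other lines (16.5% of all genes at that level were) and 0 the reverse. The 7 included BTK, a kinase of the B cell receptor, at 140 in HL60 and 228 in SUDHL4 against 61.8 in K562 and 99.0 in THP1. Other genes of the list were high in SUDHL4 alone; BLK, a kinase of B cells, was at 299 with 0 reads in the other 3 lines. Of 30 pan-leukocyte genes, CD48 was a member, 6 followed the HL60 and SUDHL4 order (16.5% of 11717 genes did) and 0 the reverse (14.9%). Their median difference was −2.16. The median log2(value + 1) level of these 30 genes was 2.87 in K562, 7.40 in THP1, 7.16 in HL60 and 7.27 in SUDHL4. Among them ARHGDIB, an inhibitor of small GTPases in blood cells, was at 7.10 in K562 against 924 in THP1, 2314 in HL60 and 1489 in SUDHL4. Of 20 T and NK cell genes, PTPRCAP was a member. The median difference of that list was 0.10. Of its 8 genes at 5 or more, 4 followed the HL60 and SUDHL4 order and 1 the reverse, beside the same 16.5% and 14.9%. CD3D was at 0.0503 in HL60 and 0.0551 in SUDHL4, and CD8A had 0 reads in both.

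Other HL60 and SUDHL4 members by role were regulators of calcium and G protein signalling (7 genes), of Ras, Arf and Rab (6) and of ubiquitin and cell death (4). ITPR2, a calcium release channel, was at 88.8 in HL60 and 418 in SUDHL4 against 14.8 in THP1 and 2.92 in K562. BIRC3, an inhibitor of apoptosis in the NF-kappaB pathway, was at 11.5 and 62.1 against 0.596 and 0.296. From the 5 leukocyte surface members, CD83, a surface protein of activated B cells and dendritic cells, was at 42.4 and 62.8 against 4.54 and 6.14. From the actin role, LPXN, a paxillin relative of leukocytes, was at 109.8 and 323 against 15.5 and 1.31. These examples too were chosen after their values were seen. Class I and class II antigen presentation, with 20 measured genes, had 0 members in either direction although its median was −1.68, since HLA-B, for one, was at 0.240 in K562 and 409.9 in THP1.

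A run of neighbouring genes on chromosome 9 stood out among the HL60 and SUDHL4 members. MTAP, which salvages methionine from methylthioadenosine, and KLHL9, an adaptor of a ubiquitin ligase, are adjacent among the measured genes. MTAP was at 37.6 in HL60 and 24.3 in SUDHL4, and KLHL9 at 14.1 and 12.8, each with 0 reads in both K562 and THP1. The next measured genes, CDKN2A, CDKN2B-AS1, CDKN2B and ENSG00000215221, also had 0 reads in both K562 and THP1, so 6 consecutive measured genes were without a read there. CDKN2A, the gene of the cell cycle inhibitors p16 and p14ARF, was at 25.3 in SUDHL4 and 4.91 in HL60, just below the minimum of 5, and is therefore not a member. CDKN2B was at 0.789 in SUDHL4 and 0.151 in HL60, CDKN2B-AS1 at 0.312 and 0.352, and ENSG00000215221 at 0.239 and 0.453. CDKN2B, CDKN2B-AS1 and ENSG00000215221 were thus low in every line, and their 0 reads in K562 and THP1 say little. KLHL9 and MTAP were at least 119-fold and 227-fold above the limit of 3 reads.

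The run was bounded by genes with reads in K562, THP1 or both. On 1 side, HACD4, an enzyme of long fatty acid synthesis, had 0 reads in K562 and in SUDHL4 and was at 53.1 in THP1 and 8.40 in HL60. Next to it FOCAD, a focal adhesion gene, was at 0.833 in K562, 74.5 in THP1, 78.0 in HL60 and 15.6 in SUDHL4. On the other side, the next measured gene, the pseudogene ENSG00000236739, was at 0.833 in K562, 0.871 in THP1, 0.419 in HL60 and 2.85 in SUDHL4. Farther on, TUSC1 had 0 reads in K562 and SUDHL4, was at 0.0503, the value of 1 read, in HL60 and at 9.64 in THP1. CAAP1 and PLAA were present in all 4 lines, CAAP1 between 19.4 and 32.1 and PLAA between 46.7 and 76.2. These are RNA levels, and the DNA of the region was not analysed here.

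**Figure D3:**
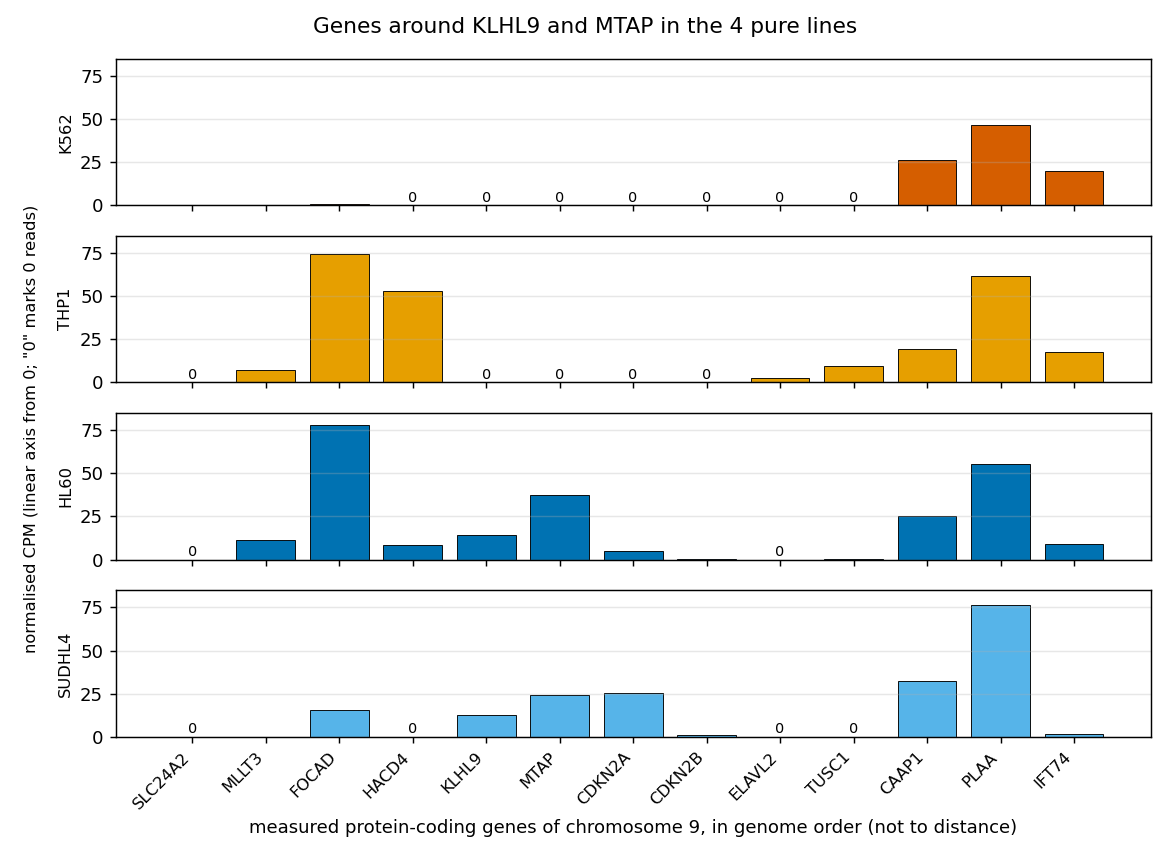
Normalised CPM, on a linear axis from 0, of the measured protein-coding genes around KLHL9 and MTAP on chromosome 9 in genome order, 1 row per pure line; the digit 0 marks genes with 0 reads. KLHL9, MTAP, CDKN2A and CDKN2B are at 0 reads in both K562 and THP1, while HACD4 is at 53.1 in THP1 and CAAP1 and PLAA are present in all 4 lines.

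In GENCODE release 29, 5 further pairs of members were next to each other among the measured protein-coding genes, all high in K562 and THP1. How many such pairs other sets of genes would give was not computed. ECM1 and ADAMTSL4 on chromosome 1 both encode matrix proteins. P4HA2 and PDLIM4 lie on chromosome 5, DAPK1, a death-associated kinase (38.2 and 10.2), and CTSL on chromosome 9, and ZIC2 and PCCA, a propionyl-CoA carboxylase subunit (12.5 and 34.7), on chromosome 13. RTL8C and RTL8A on the X chromosome are near-identical retrotransposon-derived genes, at 40.6 and 23.8 in K562, and reads may be divided between them. By chromosome, 15 of the 197 members were on chromosome 9 (7.61% against 4.05% of the 11717 genes at 5 or more), 10 on chromosome 22 (5.08% against 2.45%) and 12 on the X chromosome (6.09% against 3.31%). The counts are small and were picked as the largest excesses.

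The longest annotated transcript had a median of 3744.5 bases for K562 and THP1 members, 4480 for HL60 and SUDHL4 members and 3648 for the genes at 5 or more. GC content had medians of 53.1%, 49.7% and 47.8%, in the same order. Of the members with an annotation, 185 of 196 and 40 of 41 were protein coding. Some members have near-identical copies or overlapping partners, among them HSPA1A with HSPA1B, APOBEC3B, the pseudogene MSL3P1 and the divergent pair BAIAP2 and BAIAP2-DT, and are uncertain gene by gene, because no label or header states whether the counting used strand.

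The 6 mixtures took no part in choosing the members and show what becomes of the shared genes when the lines are pooled. SLC6A8 stood at 185, 154, 216, 129, 295 and 240.0 normalised CPM in mixtures 1 to 6. ANXA2 was at 114, 111, 163, 48.4, 237 and 232 in the same order, and RAB13 at 70.1, 65.6, 73.9, 57.7, 110.9 and 91.5. All 3 were lowest in mixture 4 and highest in mixture 5. ABLIM1 was at 82.2, 61.8, 43.1, 116, 17.98 and 22.99, and CD48 at 77.1, 44.7, 10.9, 173, 35.3 and 29.9. ABLIM1 and CD48 were thus highest in mixture 4. As RNA was measured in bulk, fewer cells of a line and less RNA per cell cannot be told apart.

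Each line's share of the RNA was fitted by non-negative least squares over 100 signature genes per line, with all 238 members left out. The shares are coefficients rescaled to add up to 100%. Before rescaling, the coefficients of a mixture added up to between 0.907 (mixture 3) and 0.986 (mixture 5). K562 and THP1 together made up 51.7%, 44.9%, 74.7%, 31.4%, 88.2% and 81.0% of mixtures 1 to 6. The member percentages that follow are not rescaled, so the 2 are not on the same scale. The median K562 and THP1 member reached 50.5%, 44.3%, 69.3%, 25.9%, 87.6% and 81.1% of its mean pure level in the pair. For the HL60 and SUDHL4 members the medians were 48.8%, 41.4%, 22.6%, 72.9%, 16.4% and 20.7%, beside estimated shares of both lines of 48.3%, 55.1%, 25.3%, 68.6%, 11.8% and 19.04%. Member median and estimated share differed most in mixture 2, though they are not on the same scale. There HL60 made up 48.3% and SUDHL4 6.73%. SUDHL4 was the higher line for 31 of the 41 genes, and the part of this in the gap was not tested. Every member had at least 1 read in every mixture.

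Where 1 of the paired lines was nearly missing, members with 0 reads in the other pair had 1 main source left. Mixing itself places such genes near the coefficient of that source. They are genes of 1 library and not replicates, so the values are a description. In mixture 4 the K562 share was 0.0132%, and the 35 members with 0 reads in HL60 and SUDHL4 stood at a median of 30.1% of their THP1 level (quartiles 26.4 and 35.5), beside a THP1 coefficient of 30.1%. In mixture 3 the SUDHL4 share was 0%, and the 7 HL60 and SUDHL4 members with 0 reads in the other lines stood at 25.3% of their HL60 level, beside a coefficient of 22.9%. In mixture 5, with 0.192% HL60, the same 7 stood at 11.1% of their SUDHL4 level, beside 11.4%. MTAP was at 15.1, 20.6, 9.49, 17.8, 2.68 and 6.33 in mixtures 1 to 6 against predictions of 14.7, 18.9, 8.62, 17.3, 2.84 and 5.48.

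Predicted levels were then set against observed ones for every member, using the coefficients times the pure profiles. A value counted as off its prediction when the log2(value + 1) levels differed by 1 or more and either was at least 5. Of 1062 values of K562 and THP1 members 8 were off (0.753%), 1 above and 7 below, and of 210 values of HL60 and SUDHL4 members 3 were off (1.43%), against 0.436% of 60304 values of the other genes (0.222% above and 0.214% below). In both directions the count is small. In 3 or more mixtures, 0 genes of either direction were off the same way. Among all the other genes, only 18 were above and 4 below in 3 or more mixtures, so nothing is read from the 0. Across the 197 members Pearson's r of observed and predicted log2 levels was lowest in mixture 2, at 0.944, and highest in mixture 3, at 0.993. Across the 41 it lay between 0.967 (mixture 2) and 0.994 (mixture 4); the genes of a mixture share 1 library and 1 set of coefficients, so this is a description.

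Below prediction were TCAF1, a regulator of the TRPM8 channel, LEPR, TRIM58, a ubiquitin ligase of erythroid cells, the integrin-linked TNS1, FN1 and HSPG2. TCAF1 was at 2.55 in mixture 2 where 7.68 was predicted and at 8.08 in mixture 5 where 18.1 was predicted. LEPR was at 19.6 against 44.5 in mixture 2, and HSPG2 at 13.4 against 29.9 in mixture 4. EGFL7, a secreted factor of endothelial cells, was above its prediction, at 48.6 against 20.3 in mixture 2. For HL60 and SUDHL4, ITPR2 was at 34.4 against 71.9 in mixture 2 and 23.6 against 54.4 in mixture 5, and PTPRCAP at 21.0 against 8.60 in mixture 5. EGFL7 also lay above in mixture 5, at 84.6 against 43.1, a difference of 0.95 log2 units.

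Transcript length was read beside these differences. ITPR2 has a longest transcript of 11405 bases, HSPG2 14327, LEPR 8227, FN1 9171, TNS1 10680, TCAF1 5733 and TRIM58 3225, while PTPRCAP has 1292 and EGFL7 2125. Over the K562 and THP1 members, Spearman's rank correlation between length and the log2 difference was −0.19, −0.61, 0.30, −0.07, −0.47 and −0.50 in mixtures 1 to 6, over 121 to 196 genes. Over the HL60 and SUDHL4 members it was −0.53, −0.73, 0.17, −0.72, −0.58 and −0.41, and over the other genes −0.40, −0.61, 0.37, −0.33, −0.52 and −0.41. It was thus negative in all mixtures but mixture 3, and near 0 for the K562 and THP1 members in mixture 4, where HSPG2 lay below prediction. These are correlations across genes of 1 library, which are not independent, and the part of length in the differences was not tested. The labels' 2 kits cannot be assigned to libraries.

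**Figure D4:**
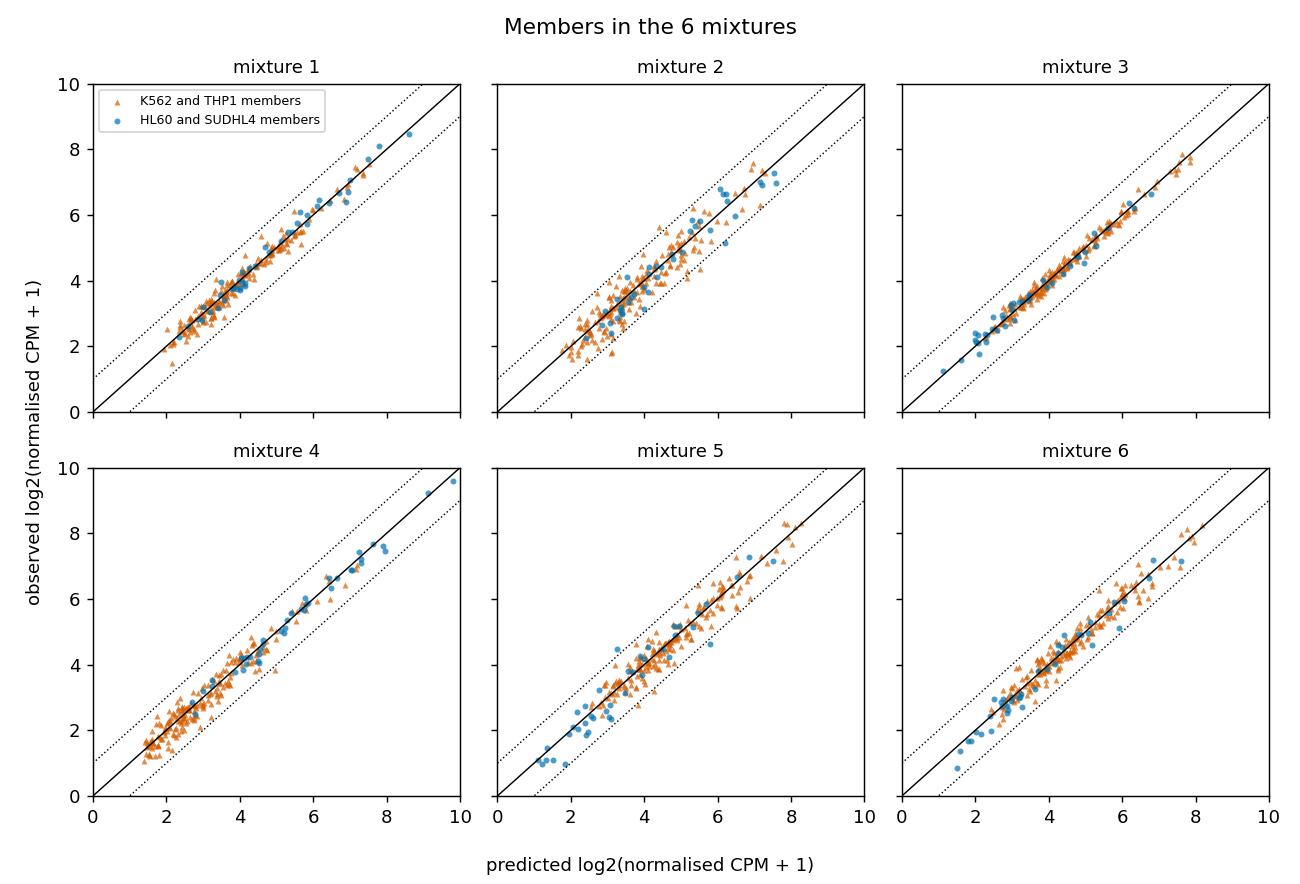
Observed against predicted log2(normalised CPM + 1) of the members in each of the 6 mixtures, triangles for the 197 K562 and THP1 members and circles for the 41 HL60 and SUDHL4 members; the solid line is equality and the dotted lines are 1 log2 unit away. Points lie closest to the line in mixture 3 and spread widest in mixture 2, where r over the 197 members was 0.944.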

How the data were processed

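Bulk RNA-seq of 4 pure lines and 6 mixtures was analysed, with 1 library per group and samples assigned from their titles. Per the submitters' processing notes, the tools included featureCounts, HISAT2 and Cell Ranger ARC 2.0.0, with build hg19; no annotation or settings are stated. The authors deposited a normalised signal close to counts per 1000000 reads, but column sums run from 909942 to 1108150, so the authors rescaled the libraries, by a method not given in the sources used here. Values above 0 are whole reads plus 0.5, multiplied by a column constant, so reads were recovered (100% whole within 0.01). The design had assumed plain CPM, and its rules were applied unchanged.

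Margins used log2(value + 1). A ratio against lines with 0 reads used 3 reads as the limit and is written as at least. Shares came from non-negative least squares (scipy 1.17.1), tested on simulated data; predictions are unrescaled coefficients times pure levels. Lengths, GC content and gene order are from GENCODE release 29 (GRCh38). No test between libraries was possible.

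Genes named are the 15 and 10 members with the widest margins, members of the gene lists, the 3 nearest the limits on each side, up to 5 per direction farthest from prediction, and neighbouring members; others are said to have been chosen after their values were seen. Some genes that this rule names are not reported here. The members and gene lists were chosen with earlier results of these data known. Alternatives covered scaling, pseudocount, minimum level, margin, counting error and signature.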

Additional observations from a re-analysis of the deposited data

How the results depend on the processing

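The counts of 197 and 41 members followed the limits of the rule. A minimum level of 20 left 71 and 25 genes, a margin of 1 gave 359 and 171, and a margin of 3 gave 96 and 16; each stricter or looser limit takes or adds genes by its construction. With total-read scaling the counts were 205 and 37, with housekeeping scaling 219 and 32, and where counting intervals also had to clear the margin 162 and 33. Housekeeping scaling kept 195 of the 197 and 31 of the 41 members. It moved the median difference of the 11717 genes at 5 or more by 0.14 log2 units and total-read scaling by 0.09. Of 68 named members, 65 kept a margin of 2 under both scalings; PARP11 (1.92 and 1.69), SBF1 (1.86 and 1.60) and TMEM156 (1.88 and 1.83) did not under total-read and housekeeping scaling. When the signature held all genes whose level reached 5 in some pure line, 13 values of K562 and THP1 members were off prediction instead of 8, and 2 of HL60 and SUDHL4 members instead of 3; the cause was not tested. No paired analysis was possible because every group holds 1 library, and for the same reason no replicate could be left out. Depth limits genes at 0 reads to below 0.139 normalised CPM.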
